A study of Mus musculus with 5 samples.

Results

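The genes described here encode collagen chains other than those of the cartilage-type collagens II, IX and XI, in the atrioventricular canal (AVC) of mouse embryos at embryonic day 12.5. They were chosen by name as all genes of the expression table whose symbol has the form of a collagen chain, without the 6 chains of those types. Col27a1 and Col10a1, also known from cartilage, are thus included. This gave 30 genes of 14697 transcripts in the table, with 1 transcript for each gene. The AVC joins the atria to the ventricles and holds the endocardial cushions, from which the valves arise. RNA-seq compared 2 groups on the C57BL/6 background. The WT group had the genotype Sox9fl/fl:+/+, and the Sox9 cKO group had the genotype Sox9fl/fl:Tie2-Cre/+. Both groups thus carried floxed alleles of Sox9, the gene of a transcription factor required in valves and cartilage, and only the cKO group carried Cre. Tie2-Cre is active in the endothelial lineage and so in much of the mesenchyme that the endocardium gives rise to, and in blood cells, but not in myocardium. Each group was 1 sample of pooled AVCs, from which the labels state 2 libraries, and these were merged into 1 deposited value for each genotype. No replicate error can be had from such values, so differences are described by their size, without a p-value.

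Collagens are built from 3 chains wound into a triple helix, and each class has its own place in tissue. Fibrillar collagens form the load-bearing fibres of interstitial matrix, and fibril-associated collagens with interrupted triple helices (FACIT) sit on the surface of those fibres. Type IV collagen forms the network of basement membranes beneath endothelium and epithelium and around muscle cells, and types XV and XVIII lie in the basement membrane zone. Type VI collagen forms beaded microfilaments close to cells. In the heart, cushion mesenchyme deposits fibrillar collagen that later gives valve leaflets their strength.

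Levels are given in nFPKM, the authors' further normalized fragments per kilobase of transcript at a common sequencing total, a scale per length on which genes can be set side by side. The difference between genotypes is given as a relative log2 ratio, the log2 of cKO over WT after adding 1 nFPKM to both, minus the median of all 13793 transcripts that reached 1 nFPKM in WT or cKO. That median was -0.11. A gene was called lower or higher at a relative log2 ratio of at least 0.5 in size, which is 1.41-fold. Sox9 itself measured 36.7 nFPKM in WT against 14.7 in cKO (-1.16). Listed markers of cell types of the embryonic heart and blood were present in both genotypes, and none of those found in the table was listed at 0. Genes that mark the canal itself were not among the lists. For comparison, 4.12% of all transcripts were called lower and 4.79% higher. Of 10 markers of cushion mesenchyme, 7 were called lower and none higher, with a summed level of 2407 nFPKM in WT and 1544 in cKO. All 10 endothelial markers stood above the all-transcript median (summed 1006 and 1204 nFPKM), and 3 were called higher. Of 9 epicardial markers 7 were called higher (305 and 389 nFPKM), as were all 8 erythroid markers found (35835 and 82426 nFPKM). The 10 cardiomyocyte markers (29908 and 31960 nFPKM) and the 8 macrophage markers (163 and 139 nFPKM) held no called gene. In whole AVCs, fewer cells of a type and less RNA per cell cannot be told apart, and the part of cell makeup in the collagen values was not tested.

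Most collagen RNA in the AVC came from few genes. In WT, 9 of the 30 genes stood at 100 nFPKM or more and held 89.8% of the summed level of 3528 nFPKM. Col3a1 was the most abundant at 905 nFPKM, followed by Col1a1 at 526, Col1a2 at 409, Col4a1 at 369, Col18a1 at 272, Col5a2 at 243, Col4a2 at 199, Col5a1 at 131 and Col4a5 at 115 nFPKM. Col3a1, which encodes the chain of type III collagen, ranked 95th of all transcripts in WT and 171st in cKO. A further 14 genes stood between 3 and 100 nFPKM and 7 were below 3 nFPKM in WT. In cKO the summed level was 3011 nFPKM, and Col4a1 took the second place at 482 nFPKM, above Col1a1 at 447 nFPKM. All 30 genes together made up 0.367% of the summed nFPKM of the table in WT and 0.313% in cKO. These sums and shares are not centred. Minus the all-transcript median of -0.11, the log2 ratio of the cKO sum to the WT sum was -0.12.

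**Figure D1:**
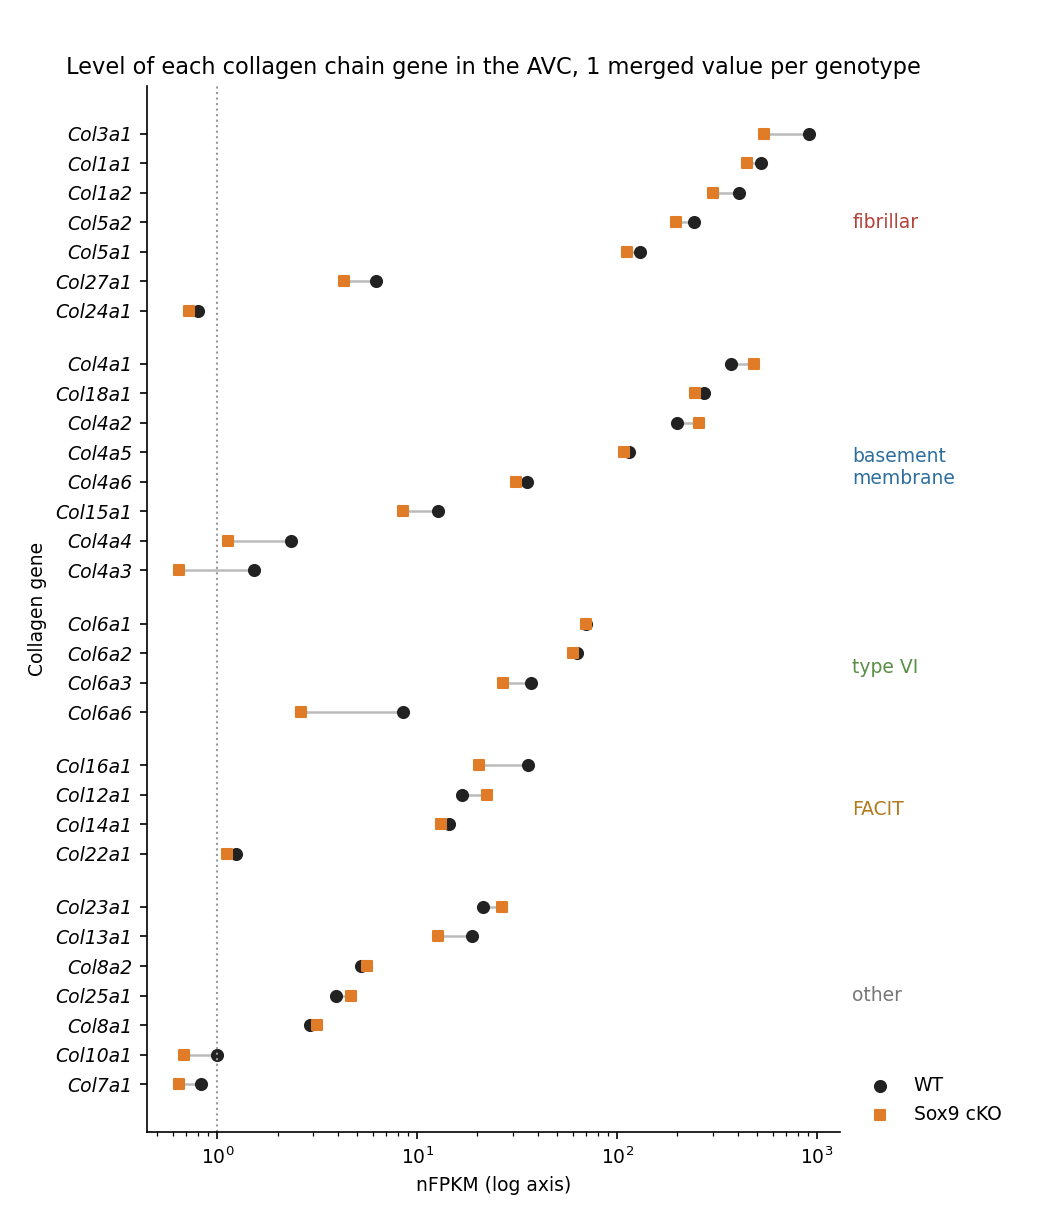
Level of each of the 30 collagen chain genes in nFPKM (log axis) in WT (black circles) and Sox9 cKO (orange squares), 1 merged value per genotype, ordered by class and by WT level; the dotted line marks 1 nFPKM. The fibrillar genes stand lower in cKO, while Col4a1 and Col4a2 stand higher.

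Of the 30 genes, 27 passed the filter of 1 nFPKM. The median of their relative log2 ratios was -0.07, against 0 for all transcripts by construction, and 16 were below 0 and 11 above. Called lower in cKO were 5 of the 27 (18.5%), namely Col6a6, Col16a1, Col3a1, Col4a4 and Col4a3, while 4.12% of all transcripts met the same rule. Col6a6, Col4a4 and Col4a3 were scarce. The rule was met by 8.48% of transcripts between 3 and 10 nFPKM, the level of Col6a6, and by 9.02% of those between 1 and 3 nFPKM. Called higher was 1 gene, Col12a1 (3.70%), against 4.79% of all transcripts. At 2-fold, 1 gene, Col6a6, was lower (0.674% of all transcripts) and none higher (0.834%). Of the 9 genes with at least 100 nFPKM, 1, Col3a1, was called lower (1.57% of transcripts at that level) and none higher (4.6%). Just inside the 1.41-fold rule stood Col12a1 at 0.503 and Col4a3 at -0.515, and just outside stood Col4a1 at 0.488 and Col4a2 at 0.480. Without the centring on the median, 7 genes were called lower (6.51% of all transcripts) and none higher (3.18% of all transcripts), since Col15a1 and Col13a1 joined the lower genes and Col12a1 left the rule.

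**Figure D2:**
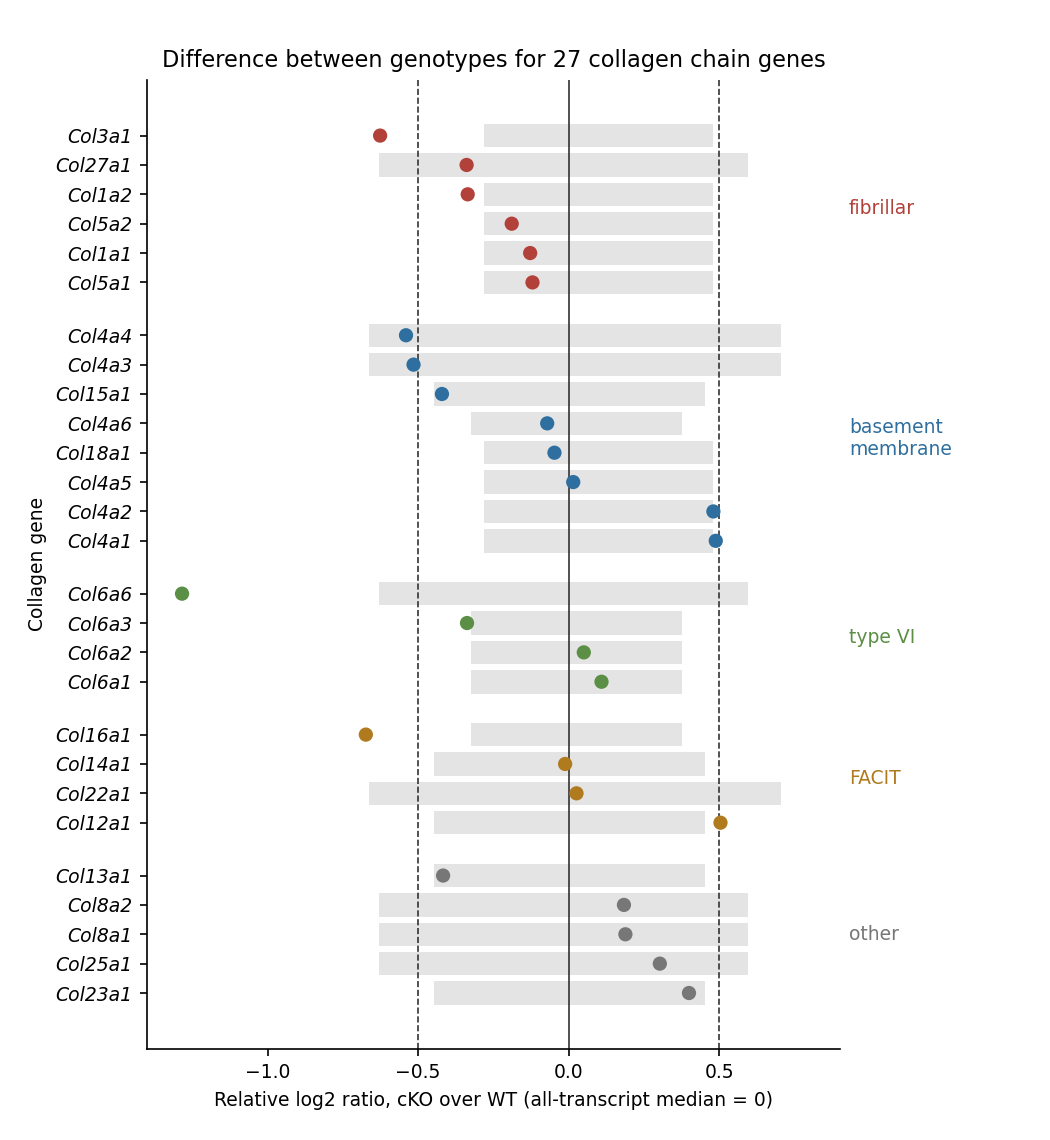
Relative log2 ratio of cKO over WT for the 27 genes that passed the filter, by class; grey bars show the middle 90% of all transcripts of the same level (higher of both values), and dashed lines the 1.41-fold rule. Col6a6, Col16a1 and Col3a1 lie well left of their grey bars, and Col1a2 and Col6a3 lie slightly left of theirs. Col12a1 lies right of its bar, and Col4a1 and Col4a2 lie at the right edge of theirs.

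The fibrillar chains that passed the filter all stood below the all-transcript median, but only Col3a1, 1 of these 6, was called lower (16.7%, against 4.12% of all transcripts). Col3a1 measured 905 nFPKM in WT against 545 in cKO, a relative log2 ratio of -0.63, or 1.54-fold lower. Of the 1716 transcripts with at least 100 nFPKM, 1.11% stood as low. The chains of type I collagen, the main fibre protein of connective tissue, differed less. Col1a2 stood at 409 and 301 nFPKM (-0.34), a ratio that 3.85% of abundant transcripts matched or undercut. Col1a1 stood at 526 and 447 nFPKM (-0.13), inside the range of most abundant transcripts. Type V collagen starts the assembly of fibrils and is built into their core. Its chains Col5a2 (243 and 198 nFPKM, -0.19) and Col5a1 (131 and 112 nFPKM, -0.12) were close to Col1a1. Col27a1, a fibrillar chain found mainly in cartilage, was scarce at 6.19 and 4.28 nFPKM (-0.34). Col24a1 (0.80 and 0.72 nFPKM) did not pass the filter. All 6 fibrillar genes that passed stood below the all-transcript median, while 50% of all transcripts did so by construction, and their median was -0.26. These 6 were also below 0 in the authors' deposited log2 fold changes, which come from the same samples. There Col3a1 was at -0.62 and Col5a1 at -0.12. Leaving out the centring lowers every ratio here, so it could not have brought any of these genes above 0. Postn, Twist1 and Pdgfra, markers of cushion mesenchyme, had relative log2 ratios of -0.89, -1.30 and -0.61 in the same values. Vcan, another of these markers, had -0.03.

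The sequences before the starts of Col3a1, Col6a6 and Col16a1 are shown because these are the genes above 3 nFPKM in WT that were called lower, and that of Col1a2 because it was the next lowest abundant gene. Each is the 250 bases 5′ of the start in RefSeq (GRCm38.p6), on the gene's own strand and 5′ to 3′. Capitals mark the core motif of SOX factors (ACAAAG or ACAATG), the CCAAT box (CCAAT) and the TATA box (TATAAA) on either strand.
Col3a1, chr1:45311288-45311537, plus strand: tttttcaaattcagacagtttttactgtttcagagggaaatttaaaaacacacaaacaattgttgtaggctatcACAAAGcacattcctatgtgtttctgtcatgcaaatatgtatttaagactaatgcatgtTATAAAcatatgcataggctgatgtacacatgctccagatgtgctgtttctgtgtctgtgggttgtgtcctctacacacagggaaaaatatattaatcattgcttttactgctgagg
Col1a2, chr6:4505368-4505617, plus strand: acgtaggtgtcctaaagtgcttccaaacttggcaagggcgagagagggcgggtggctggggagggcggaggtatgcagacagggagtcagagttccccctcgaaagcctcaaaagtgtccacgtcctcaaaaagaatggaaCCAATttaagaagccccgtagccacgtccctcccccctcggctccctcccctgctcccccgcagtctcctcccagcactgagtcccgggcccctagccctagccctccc
Col6a6, chr9:105828086-105828335, minus strand: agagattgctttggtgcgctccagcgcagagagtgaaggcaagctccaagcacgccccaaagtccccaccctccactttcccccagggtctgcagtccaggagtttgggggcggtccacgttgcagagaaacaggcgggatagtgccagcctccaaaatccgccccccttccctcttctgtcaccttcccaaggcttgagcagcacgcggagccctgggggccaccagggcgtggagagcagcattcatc
Col16a1, chr4:130047590-130047839, plus strand: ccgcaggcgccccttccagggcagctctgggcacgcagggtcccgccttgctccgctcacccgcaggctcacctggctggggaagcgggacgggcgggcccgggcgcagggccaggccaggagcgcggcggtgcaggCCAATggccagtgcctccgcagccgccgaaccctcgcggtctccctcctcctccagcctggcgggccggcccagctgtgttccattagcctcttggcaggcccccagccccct
The Col3a1 window held 1 match to the SOX core, ACAAAG, with its first base at position -176 from the start, and 1 to TATAAA. The Col1a2 and Col16a1 windows each held 1 CCAAT and no SOX core, and the Col6a6 window held none of these motifs. RefSeq windows were found for 24 of the 30 genes, 26 windows in all. A SOX core was found in 2 of the 26 (7.69%), those of Col3a1 and Col10a1, and in 25.2% of all 32851 promoter windows. CCAAT was found in 8 of the 26 and in 33.8% of all windows, and TATAAA in 3 of the 26 and in 12.4% of all windows. The Col3a1 window is rich in A and T, with 35.2% G and C against a median of 52.4% over all windows. The Col10a1 window had 41.6%. Every other window of these collagen genes had more, from 47.6% (Col4a6) to 76.4% (Col5a1). The part of base composition in the motif shares was not tested. A match of such short letters is a description of the sequence, and the windows leave out distant elements.

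Basement membrane chains divided by chain pair. Of 8 genes, 5 stood below the all-transcript median and 3 above, with a median of -0.06. Called lower were 2 (25%, against 4.12% of all transcripts), and none was called higher (4.79% of all transcripts). Col4a1 and Col4a2 encode the chains of the common type IV network. Col4a1 measured 369 nFPKM in WT against 482 in cKO, a relative log2 ratio of 0.49. Col4a2 stood at 199 and 258 nFPKM, a ratio of 0.48. Of the abundant transcripts, 4.84% stood as high as Col4a1 and 5.01% as high as Col4a2. Without the centring both stayed above 0, at 0.38 and 0.37, and the authors' deposited table gives 0.49 and 0.48. The pair Col4a5 (115 and 108 nFPKM, 0.01) and Col4a6 (35.5 and 31.3 nFPKM, -0.07), of the network found around smooth muscle and some epithelia, stood at the median. Both genes lie on the X chromosome, and the pools differed in sex-linked RNA, with Xist at 175 and 71.6 nFPKM; its part in these values was not tested. Col4a3 (1.52 and 0.64 nFPKM, -0.52) and Col4a4 (2.33 and 1.13 nFPKM, -0.54), best known from the kidney filter, were near the detection limit. At that level 9.02% of all 1640 transcripts were called lower, so their calls rest on small values. Col18a1, whose protein carries the endostatin fragment, stood at 272 and 245 nFPKM (-0.05), and its relative Col15a1 at 12.6 and 8.47 nFPKM (-0.42).

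Col4a1 and Col4a2 lie head to head on mouse chromosome 8. Their starts in RefSeq are so close that the transcripts begin on opposite strands of the same stretch of 22 bases, which is shown for that reason in lower case on the plus strand of GRCm38.p6.
Col4a2 start to Col4a1 start, chr8:11312805-11312826: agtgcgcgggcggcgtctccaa
The stretch runs from the first base of Col4a2 to the first base of Col4a1. The sources used here do not give whether reads were counted by strand.

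Other basement membrane proteins were mostly above the all-transcript median. Of the 19 genes listed, 15 were above it, with a median of 0.18. Called higher were 5 (26.3%), against 4.79% of all transcripts, and none was called lower. Hspg2, which encodes perlecan, the large heparan sulfate proteoglycan of basement membranes, measured 171 nFPKM in WT against 228 in cKO (0.52). The laminin chain Lama5 stood at 28.6 and 40.9 nFPKM (0.61), and Lama1 at 3.81 and 5.98 nFPKM (0.64). The laminin chains Lamb3 (0.51) and Lamc3 (0.51), named after their values were seen, were under 2 nFPKM in both genotypes. Among transcripts between 1 and 3 nFPKM, their level, 10.9% were called higher. Among those between 3 and 10 nFPKM, the level of Lama1, 7.45% were. Nid1, a linker between the laminin and type IV networks, stood at 148 and 178 nFPKM (0.37), and Lamc1, the common laminin gamma chain, at 301 and 331 nFPKM (0.24). Sparc, a collagen-binding protein, stood at 823 and 753 nFPKM (-0.02). Lama2, a laminin of muscle and mesenchyme, named after its value was seen, had the lowest ratio of the list at 41.7 and 30.1 nFPKM (-0.35), short of the rule. The 10 endothelial markers ran from 0.09 (Tek) to 0.82 (Emcn), with a median of 0.32. The 9 epicardial markers ran from -0.40 (Tcf21) and -0.17 (Tbx18) to 1.13 (Krt19), with a median of 0.75; the part of these cells in the basement membrane values was not tested.

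In summed level, the balance between both large classes differed between genotypes. The 7 fibrillar genes summed to 2221 nFPKM in WT and 1607 in cKO, and the 8 basement membrane genes to 1007 and 1134 nFPKM. Fibrillar genes thus held 62.9% of the collagen sum in WT and 53.4% in cKO, and basement membrane genes 28.6% and 37.6%. The ratio of the fibrillar to the basement membrane sum was 2.20 in WT and 1.42 in cKO. This ratio is taken within a genotype and does not depend on the scaling between genotypes. Col3a1, Col4a1 and Col4a2 carried much of the difference, for the cKO ratio was 0.643 of the WT ratio with all genes, 0.718 without Col3a1 and 0.806 without Col4a1 and Col4a2 (alternatives chosen after seeing the data). By number of genes the basement membrane class leaned the other way from its sum, which Col4a1, Col18a1 and Col4a2 largely made up.

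**Figure D3:**
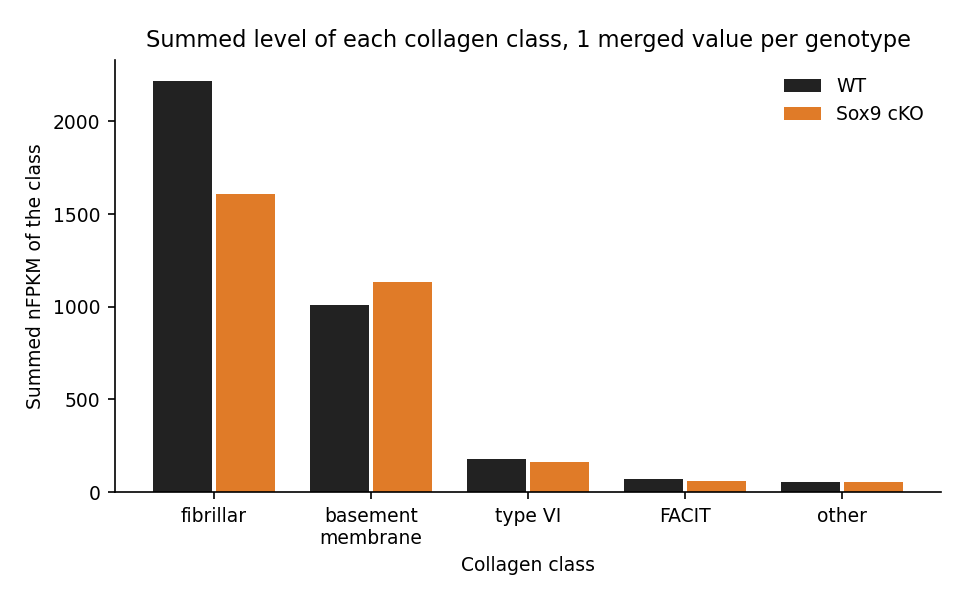
Summed nFPKM of each collagen class in WT (black bars) and Sox9 cKO (orange bars), 1 merged value per genotype with no error bars. The fibrillar sum is lower in cKO (2221 and 1607 nFPKM), and the basement membrane sum is higher (1007 and 1134 nFPKM).

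Among 4 type VI chains, 1, Col6a6, was called lower (25%). The same rule was met by 4.12% of all transcripts and by 8.48% of those between 3 and 10 nFPKM, the level of Col6a6. The 3 chains of the common trimer did not meet the rule. Col6a1 measured 69.7 nFPKM in WT against 69.8 in cKO (0.11), and Col6a2 at 62.7 and 60.3 nFPKM (0.05); without the centring Col6a1 was at 0.003 and Col6a2 at -0.06. Col6a3, the long chain that completes the common trimer, stood at 37.0 and 26.9 nFPKM (-0.34), as low as 4.43% of transcripts of its level. Col6a6, a chain that can take the place of Col6a3 in the trimer, had the largest difference of all 27 genes. It measured 8.50 nFPKM in WT against 2.63 in cKO, a relative log2 ratio of -1.28, and 0.609% of transcripts between 3 and 10 nFPKM stood as low. The authors' deposited table gives -1.41 for it. The median of the 4 type VI genes was -0.14.

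FACIT chains went both ways. Col16a1, found beside fibrils and fibrillin microfibrils, measured 35.8 nFPKM in WT against 20.4 in cKO (-0.67), and 0.708% of transcripts of its level stood as low. Col12a1, on fibrils of dense connective tissue, stood at 16.7 and 22.3 nFPKM (0.50), as high as 3.67% of transcripts of its level. Col14a1, its close relative, stood at 14.4 and 13.2 nFPKM (-0.01), and Col22a1, of tissue junctions, at 1.24 and 1.12 nFPKM (0.03). The 4 FACIT genes had a median of 0.01, which describes none of the outer values.

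None of the remaining chains was called, and all stood below 30 nFPKM. Col23a1 (21.4 and 26.5 nFPKM, 0.40) and Col13a1 (18.7 and 12.7 nFPKM, -0.42), both anchored in the cell membrane, had ratios of opposite sign. Col25a1, also a membrane collagen, stood at 3.92 and 4.64 nFPKM (0.30). The short network-forming chains Col8a2 (5.24 and 5.58 nFPKM, 0.18) and Col8a1 (2.91 and 3.14 nFPKM, 0.19), known from vessel walls and the cornea, differed little. Col10a1 of hypertrophic cartilage (0.995 and 0.684 nFPKM) and Col7a1 of the skin's anchoring fibrils (0.826 and 0.639 nFPKM) did not pass the filter. Both were below 1 nFPKM in WT and in cKO. Among the cartilage-type chains left out by the rule, Col9a1, Col9a3 and Col9a2 had relative log2 ratios of -2.83, -2.64 and -1.44, Col2a1 of -0.09 and Col11a1, a partner of fibrillar chains outside cartilage as well, of -0.32.

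Ratios between chains within a genotype showed which partners kept their proportion. Col4a1 stood at 1.86 times Col4a2 in WT and 1.87 times in cKO. The ratio of Col5a1 to Col5a2 was 0.538 and 0.564, that of Col6a1 to Col6a2 was 1.11 and 1.16, and that of Col4a5 to Col4a6 was 3.24 and 3.45. In these 4 pairs the proportion differed between genotypes by at most 6.50%. The ratio of the scarce chains Col8a2 to Col8a1 was 1.80 and 1.78. Other proportions differed more. The ratio of Col4a3 to Col4a4, both below 3 nFPKM, was 0.655 in WT and 0.569 in cKO. Col1a1 stood at 1.29 times Col1a2 in WT and 1.49 times in cKO. Col3a1 stood at 1.72 times Col1a1 in WT and 1.22 times in cKO, and at 2.45 and 1.13 times Col4a1. The ratio of Col4a1 to Col4a5 was 3.21 and 4.46, that of Col6a1 to Col6a3 was 1.88 and 2.59, and that of Col6a3 to Col6a6 was 4.35 and 10.3. RNA ratios do not give the makeup of the protein trimers.

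**Figure D4:**
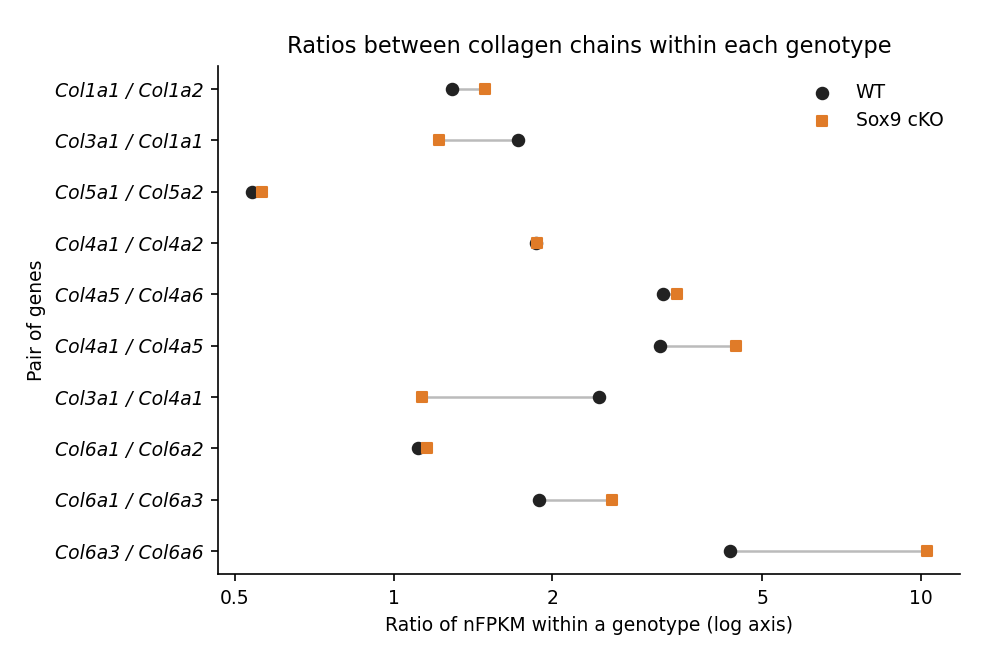
Ratio of nFPKM between pairs of collagen genes within WT (black circles) and within Sox9 cKO (orange squares), log axis, 1 merged value per genotype. Col4a1 to Col4a2 is the same in both at 1.86 and 1.87, while Col3a1 to Col4a1 is 2.45 in WT and 1.13 in cKO.

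Enzymes and chaperones that modify and fold new collagen chains had ratios on both sides of the all-transcript median. Of 20 listed genes, all of which passed the filter, 14 were above it and 6 below, and the list median was 0.09, or -0.02 without the centring. P4ha1 (60.1 and 90.7 nFPKM, 0.69) was called higher, 1 of 20 (5%) and so near the 4.79% of all transcripts, and none was called lower (4.12% of all transcripts). P4ha1 and P4ha2 (42.4 and 55.8 nFPKM, 0.49) encode catalytic subunits of prolyl 4-hydroxylase, whose product stabilizes the triple helix, and P4hb (566 and 609 nFPKM, 0.21) its partner subunit. The third catalytic subunit gene, P4ha3, stood at 17.3 and 13.5 nFPKM (-0.23), and Tmem38b, Leprel2 and Mia3 stood at -0.23, -0.20 and -0.15; these 4 are named after their values were seen. Plod2, a lysyl hydroxylase that prepares cross-links, stood at 68.9 and 89.4 nFPKM (0.48), and its relative Plod1 at 53.0 and 53.9 nFPKM (0.13). Leprel1, a prolyl 3-hydroxylase that acts on type IV collagen, stood at 39.8 and 49.9 nFPKM (0.43). Serpinh1, the collagen chaperone HSP47, was more abundant than Col3a1 in both genotypes and stood at 992 and 1003 nFPKM (0.12). P4ha1, P4ha2 and Plod2 are known target genes of hypoxia-inducible factor. All 17 listed genes of hypoxia and glycolysis were above the all-transcript median in the same values (median 0.53, summed 4546 and 5933 nFPKM), and 9 of them (52.9%, against 4.79% of all transcripts) were called higher. They ran from Hk1 at 0.05 and Egln1 at 0.17 to Vegfa at 1.05 and Ndrg1 at 1.77. Their part in the values of the hydroxylases was not tested.

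No gene that processes, cross-links or turns over collagen met the 1.41-fold rule. At the shares of all transcripts (4.12% lower and 4.79% higher), lists of 10 genes would hold few such genes or none. For the 10 processing and cross-linking genes that passed the filter, 6 were below the all-transcript median, and their median was -0.04. The procollagen proteinases Adamts2 (9.10 and 6.09 nFPKM), Tll1 (3.62 and 2.45 nFPKM) and Bmp1 (75.3 and 56.7 nFPKM) had ratios of -0.41, -0.32 and -0.30. Loxl2, a lysyl oxidase relative that acts in basement membranes, stood at 234 and 270 nFPKM (0.31), while Lox stood at -0.04 and Pcolce, an enhancer of procollagen cleavage, at 0.02. Of 10 turnover genes that passed, 7 were below the all-transcript median and none was called, with a median of -0.17. Ctsk, a collagen-cleaving cathepsin, stood at 25.6 and 17.8 nFPKM (-0.39). Mrc2, a receptor for collagen uptake, stood at -0.29, the gelatinase Mmp2 at -0.27 (146 and 112 nFPKM), the inhibitor Timp2 at -0.24, and Mmp14, which cleaves fibrillar collagen at the cell surface, at -0.15.

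Collagen receptors held called genes in both directions. Of 8 receptors that passed the filter, 2 were called lower (25%, against 4.12% of all transcripts) and 1 higher (12.5%, against 4.79%), and the median was 0.03. Ddr2, a receptor tyrosine kinase for fibrillar collagen on mesenchymal cells, measured 12.2 nFPKM in WT against 5.94 in cKO (-0.83). Itga10, an integrin subunit of chondrocytes, stood at 3.52 and 1.69 nFPKM (-0.64). Itga1, an integrin subunit that binds type IV collagen, stood at 52.2 and 72.9 nFPKM (0.58). Their relatives Ddr1, the receptor tyrosine kinase of epithelia (181 and 159 nFPKM, -0.08), and Itgb1, the beta partner of the collagen-binding integrins (650 and 618 nFPKM, 0.03), stood near the median.

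**Figure D5:**
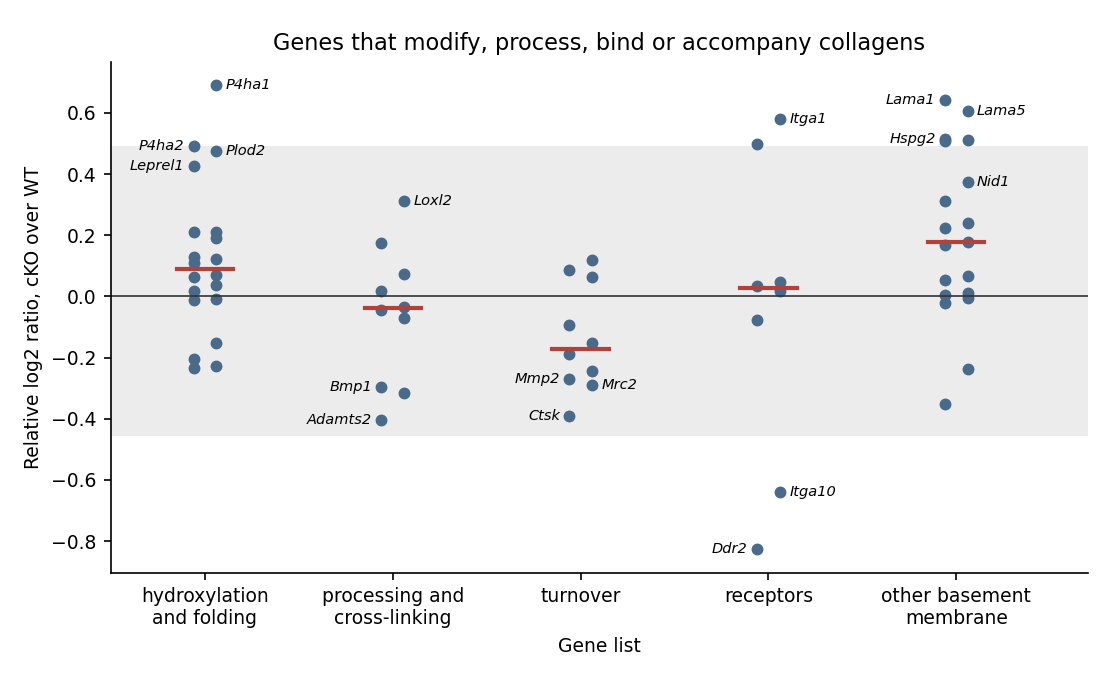
Relative log2 ratio of cKO over WT for each gene of 5 lists (points; side-by-side offset is for legibility), with the list median (red line) and the middle 90% of all transcripts (grey band). P4ha1, Itga1, Lama1, Lama5 and Hspg2 are among the genes above the band, and Ddr2 and Itga10 lie below it.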

How the data were processed

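RNA-seq of AVCs from WT and Sox9 cKO embryos was analysed, with 1 sample per genotype taken from the genotype labels. The FPKM values were normalized further (nFPKM) and merged over duplicate libraries by the authors, per the file headers. TopHat2, Cufflinks, edgeR and mm9 are named in the submitters' processing notes, with no version or role. The deposited log2 fold change is the authors' own and has no p-value beside it. Counts and depth are unknown, so the precision of single values is unknown. A pseudocount of 1 was added before the log2 ratio, so ratios of scarce genes are too small. A level of 1 nFPKM or more in 1 genotype was required, which kept 13793 of 14697 transcripts, and ratios were centred on their median.

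Members, lists and alternatives were chosen with earlier results of these data known. Named were all members that reached 3 nFPKM, the 4 largest ratios of each pathway list among genes that reached 3 nFPKM, and a set of well-known list genes; scarcer members are given by their values as well. Peak lists (mm9) were not used here, since the gene tables are of GRCm38.p6. Promoter sequences and gene order came from RefSeq (GRCm38.p6), in which all 30 symbols were found. Alternatives changed the pseudocount, the filter, the centring, the source of the ratio, the sum over transcripts and the class of Col15a1 and Col18a1. Each collagen gene has 1 transcript, so the sum over transcripts could change its ratio only through the median used for centring. Computations in Python 3.11.15 (numpy 2.4.6, pandas 2.3.3, matplotlib 3.10.9) were tested on simulated data. That test planted large changes outside the scarce genes and scored calls at 2-fold only. It does not give the error of calls at the 1.41-fold rule or among scarce genes.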

Additional observations from a re-analysis of the deposited data

How the results depend on the processing

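No paired analysis was possible because each genotype has 1 merged value, and for the same reason no library could be left out. Class and list medians that moved by up to 0.15 (log2), and counts within 1.5 times, were taken as unmoved. The replicate spread that would set a better limit is unknown. Leaving out the centring adds the all-transcript median of -0.11 to every median, so it could not pass this limit. It still took 3 medians below 0: FACIT (0.007 to -0.099), collagen receptors (0.027 to -0.079), and hydroxylation and folding (0.089 to -0.017). The number of genes called lower, 5, was 3 with a pseudocount of 5 (Col4a4 at -0.18 and Col4a3 at -0.13 left), 2 with a filter of 10 nFPKM and 2 with one of 30 nFPKM, which leave 19 and 14 of the 27 genes. The 1 gene called higher was lost (0) with a pseudocount of 5, without centring and with the filter of 30 nFPKM. With the filter of 10 nFPKM the median of type VI genes was 0.049 and that of the class of other chains -0.010. With the filter of 30 nFPKM, chosen after seeing the data, the number below 0 was 9, the FACIT median was -0.68 (1 gene left) and the type VI median 0.039. The ratio of fibrillar to basement membrane sums in cKO, 0.643 of that in WT, was 0.718 without Col3a1, 0.806 without Col4a1 and Col4a2, and 0.594 with Col15a1 and Col18a1 counted as other. No called gene reversed its sign under the alternatives run. Over these, Col3a1 ran from -0.73 to -0.62, Col16a1 from -0.78 to -0.60, Col6a6 from -1.54 to -0.74, and Col4a1 from 0.38 to 0.495. Unknown depth limits the genes below 3 nFPKM most.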

Other observations

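Collagen genes that lie next to each other had similar relative log2 ratios in 4 of 5 pairs with no protein-coding gene between them in the RefSeq order. The head-to-head pair Col4a1 and Col4a2 differed by 0.01, Col4a4 and Col4a3 by 0.03, Col6a2 and Col6a1 by 0.06, and Col4a6 and Col4a5 by 0.09. Col4a4 and Col4a3 were below 3 nFPKM in both genotypes, where the added 1 nFPKM makes ratios too small. With a pseudocount of 0.1 they stood further apart, at -0.87 and -1.02. The median difference over all 351 pairs of the 27 genes was 0.39. The fifth pair, Col3a1 and Col5a2, lies side by side on chromosome 1 and differed by 0.44, with Col3a1 at -0.63 and Col5a2 at -0.19. Neighbours in the first 4 pairs also belong to the same collagen type, so position and type cannot be told apart in these values, and the difference was not tested.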
